A study of Mus musculus with 6 samples.

Results

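The mitosis and spindle genes described here are 40 genes whose products enter, drive or finish cell division, and their RNA level was read as a measure of how much of a sorted cell population was dividing. They were taken as a list of gene names, with no threshold on a measured value but with earlier results of these data known, and all 40 were found among the 53657 gene names of the count data. The RNA came from adult mouse spermatogonia in 2 groups of 3 mice each. WT mice carried Gfra1-creERT2, a tamoxifen-inducible Cre recombinase driven from the Gfra1 promoter, and a tdTomato reporter at Rosa26, but no mutant Hras allele. MUT mice carried both of these and in addition one FR-Hras allele, in which Cre removes a wild-type copy of Hras and leaves Hras G12V under its own promoter. Both groups received tamoxifen and were sampled 3 months later, when tdTomato+ cells with bright MCAM staining were sorted from dissociated testes. Recombination need not reach every labelled cell, and the share of cells that carried the mutation was not analysed here. The mice were of mixed strain background with littermates as controls.

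Dividing cells make the RNA of many of these genes mainly in G2 and mitosis and destroy many of the proteins when mitosis ends. Undifferentiated spermatogonia hold the stem cells of the testis and divide throughout adult life. Hras is a small GTPase that passes growth factor signals on, and Hras G12V is locked in its active form, which makes the level of mitosis genes a question the comparison of MUT with WT addresses. In RNA from a whole population, fewer dividing cells and less mitotic RNA per dividing cell cannot be told apart.

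Many mitosis genes share 2 short promoter elements, and these are shown as a feature that the choice of the genes did not use. One is the cell cycle homology region (CHR), taken here as TTTGAA or TTCGAA, which is bound by the MuvB complex together with Mybl2 or Foxm1, and the other is the CCAAT box, CCAAT, bound by NF-Y. Both were searched on both strands of RefSeq promoter windows of GRCm38.p6, which reach from 250 bases before to 50 bases after a gene's start. A window was given for 32 of the 40 genes, without Aurkb, Ccna2, Cdc25c, Foxm1, Incenp, Kif20a, Spc24 and Tpx2. The CHR letters were present in 25 of these 32 genes (78.1%), against 21.7% of the 27025 genes with a window and 16.5% of the 11655 coding genes that were also tested for expression. In the lists described below, 50.6% of the further mitosis genes and 18.8% of the replication genes with a window held the CHR letters. CCAAT was present in 24 of the 32 (75.0%), against 41.1% of all genes with a window, and in 55.3% of the further mitosis and 75.0% of the replication genes. Both were present in 22 (68.8%), against 8.61% of all genes with a window, 31.8% of the further mitosis and 18.8% of the replication genes. The 130 bases before the start of 7 canonical mitosis genes follow, 5′ to 3′ on the gene's own strand, with CHR and CCAAT letters of either strand in capitals (TTCAAA and ATTGG are their reverse forms).
Mki67, chr7:135716380-135716509, minus strand: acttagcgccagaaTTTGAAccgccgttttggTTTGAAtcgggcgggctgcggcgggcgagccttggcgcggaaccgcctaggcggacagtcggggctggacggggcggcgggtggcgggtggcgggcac
Top2a, chr11:99024190-99024319, minus strand: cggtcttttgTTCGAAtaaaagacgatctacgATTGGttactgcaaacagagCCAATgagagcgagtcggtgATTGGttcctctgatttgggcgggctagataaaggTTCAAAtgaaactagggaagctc
Cdk1, chr10:69352913-69353042, minus strand: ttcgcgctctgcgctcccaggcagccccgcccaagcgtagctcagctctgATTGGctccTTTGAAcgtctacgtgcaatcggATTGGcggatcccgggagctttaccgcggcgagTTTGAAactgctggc
Ccnb1, chr13:100786487-100786616, minus strand: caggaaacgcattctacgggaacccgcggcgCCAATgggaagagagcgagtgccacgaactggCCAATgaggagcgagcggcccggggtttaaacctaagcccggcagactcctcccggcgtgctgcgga
Plk1, chr7:122159305-122159434, plus strand: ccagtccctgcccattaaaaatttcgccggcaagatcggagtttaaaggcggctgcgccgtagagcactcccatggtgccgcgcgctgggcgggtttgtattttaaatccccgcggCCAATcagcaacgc
Aurka, chr2:172370571-172370700, minus strand: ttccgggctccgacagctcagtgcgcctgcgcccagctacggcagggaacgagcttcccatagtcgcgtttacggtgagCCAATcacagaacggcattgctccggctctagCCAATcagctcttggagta
Birc5, chr11:117849107-117849236, plus strand: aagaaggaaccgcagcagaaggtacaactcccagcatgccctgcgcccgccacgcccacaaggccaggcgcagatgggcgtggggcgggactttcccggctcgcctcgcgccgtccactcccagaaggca
In Mki67, 2 CHR matches began 116 and 98 bases before the start. Top2a held CHR and CCAAT matches side by side, and Cdk1 had a CHR match 15 bases before its start with a CCAAT match 48 bases before it. In Ccnb1 the only matches to the searched letters were 2 CCAAT boxes, 99 and 67 bases before the start, while Birc5 matched neither motif. Other forms of the CHR were not searched. For Plk1 and Aurka the CHR match lay just after the start, at bases 31 and 33. A match describes the letters only, and binding was not measured.

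Each library held between 22729292 and 23550433 fragments counted on genes, and a member had between 589 and 17475 counts in a library. All 40 passed the filter on low counts, which kept 19656 genes. Hras itself measured 15.2, 16.1 and 17.5 RPKM in WT replicates 1 to 3 and 18.7, 18.5 and 16.3 RPKM in MUT replicates 1 to 3, with overlapping groups (log2 fold change 0.14 ± 0.08 SE, adjusted p = 0.998, edgeR's quasi-likelihood test). RPKM are counts scaled to library size by the TMM method and divided by the length of annotated exons in kilobases, and the count of Hras does not separate its wild-type and mutant transcripts. Defining genes of undifferentiated spermatogonia were expressed in every sample, with Zbtb16 between 57.4 and 88.8 RPKM, Sall4 between 51.7 and 68.8 RPKM and Mcam, whose product was used for the sort, between 167 and 211 RPKM. Of 11 such genes, 5 had a higher and 6 a lower mean in MUT (median log2 fold change -0.07). With edgeR 0 were called and 1, Lin28a, was higher in MUT at an unadjusted p under 0.05 (9.09%, against 2.78% of all tested genes). One library stood apart from the rest. In WT replicate 3, long transcripts were lower and short ones higher than in the other mice, and the summed levels of macrophage and spermatid genes were highest. The summed level of the 11 genes of undifferentiated spermatogonia was lowest in this library, at 506 RPKM against 545 to 642 RPKM in the other mice. Directions that turn without this library are given with and without it. Without it, 4 of the 11 genes of undifferentiated spermatogonia were higher and 7 lower in MUT (median log2 fold change -0.07). Of these 11 genes 0 were called and 4 had an unadjusted p under 0.05 in edgeR, where the share of all genes was 3.63%.

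No mitosis or spindle gene passed the test of MUT against WT. With edgeR's quasi-likelihood test, 0 of the 40 reached an adjusted p of 0.1, against 2 of 19656 genes in all (0.0102%, and 0.0661% with the replicate number as a block). None had an unadjusted p under 0.05 in edgeR, in DESeq2 or in limma voom, where the share of all genes was 2.78% in edgeR and 1.18% in DESeq2. DESeq2 called 9 genes (0.0241%), none of them a member. The smallest unadjusted p among the 40 was 0.111 (edgeR), for Cdc25b, and their adjusted p-values were 0.998 or above. The log2 fold changes ran from -0.09 (Cenpa) to 0.16 (Foxm1), that is, from 0.939-fold to 1.12-fold. Of the 40 genes, 30 had a higher mean in MUT (75%) and 10 a lower one, where 58.1% of the 10583 genes above 10 CPM (counts scaled to library size) and 51.8% of all tested genes were higher. The median log2 fold change of the 40 was 0.04, beside 0.02 for genes above 10 CPM and 0.01 for all tested genes. Without WT replicate 3 the direction turned for 15 of the 40 genes, 7 from higher to lower in MUT and 8 the other way, with 31 then higher.

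The precision was high enough to bound the differences. The 95% confidence interval of the MUT to WT ratio lay within 1.5-fold of equality for all 40 genes, as it did for 92% of the genes above 10 CPM and 59.1% of all tested genes. The lowest limit was that of Spc24, at 0.793-fold, and the highest that of Mki67, at 1.34-fold. These intervals cover the spread between 3 mice a group and do not take account of the share of cells that carried the mutation.

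**Figure D1:**
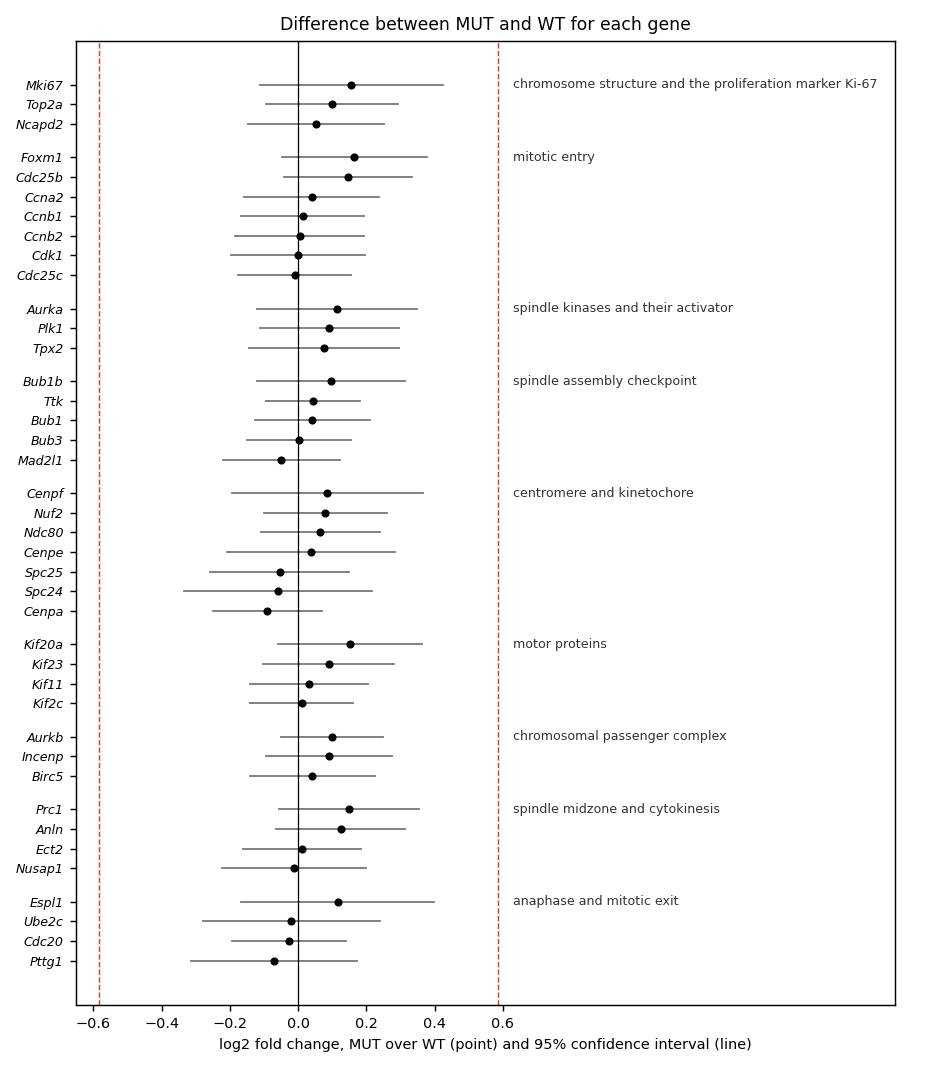
Log2 fold change of each of the 40 genes, MUT over WT (points, x axis), with its 95% confidence interval from edgeR (lines), the genes grouped by role (y axis). Dashed lines mark a 1.5-fold difference in either direction. Every interval crosses 0 and none reaches a dashed line.

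Of the 3 genes of chromosome structure, all had a higher mean in MUT (median log2 fold change 0.10) and none passed the test. Mki67, which encodes the proliferation marker Ki-67 and coats mitotic chromosomes, measured 43.2, 49.0 and 35.3 RPKM in WT replicates 1 to 3 and 46.2, 49.4 and 46.3 RPKM in the MUT replicates. The MUT mice lay together at the upper end of the WT range, and the lowest value was that of WT replicate 3. The log2 fold change of Mki67 was 0.16 ± 0.12 (SE, edgeR adjusted p = 0.998), and 0.04 without WT replicate 3. Top2a, the topoisomerase that disentangles sister chromatids, measured 55.4, 62.8 and 55.7 RPKM in WT and 60.3, 65.6 and 60.1 RPKM in MUT. WT replicate 2 was above 2 of the MUT mice, so that the groups overlapped (log2 fold change 0.10). Ncapd2, a condensin subunit, had a log2 fold change of 0.05, and of -0.01 without WT replicate 3.

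Of the 7 genes of mitotic entry, 5 had a higher mean in MUT and 2 a lower one (median log2 fold change 0.01), and without WT replicate 3 all 7 were higher (median 0.07). Cdk1, the kinase that starts mitosis, measured 12.2, 13.9 and 15.0 RPKM in WT and 14.3, 13.3 and 13.5 RPKM in MUT. The group means were equal at 13.7 RPKM, and the difference turned sign with the fitting method and without WT replicate 3 (0.07 on the log2 scale). Ccnb1, the cyclin that activates Cdk1, measured 28.2, 33.6 and 31.5 RPKM in WT and 31.8, 32.2 and 30.1 RPKM in MUT. All MUT values of Ccnb1 fell inside the WT range (31.1 ± 2.73 against 31.3 ± 1.12 RPKM, SD, n = 3 each). The other cyclins, Ccnb2 and Ccna2, and the phosphatase Cdc25c had log2 fold changes of 0.00, 0.04 and -0.01 (Cdc25c 0.01 without WT replicate 3).

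The highest point estimate of the 40 was that of Foxm1, also a gene of mitotic entry, followed by those of Mki67, Kif20a, Prc1 and Cdc25b. Foxm1, the transcription factor that drives G2 and M genes, measured 34.2, 37.6 and 29.9 RPKM in WT and 37.3, 40.1 and 36.7 RPKM in MUT. WT replicate 2 lay among the MUT values and WT replicate 3 was lowest. Its log2 fold change was 0.16 ± 0.09 (SE, edgeR adjusted p = 0.998), and 0.08 without WT replicate 3. Cdc25b, the phosphatase that triggers Cdk1 activity at the centrosome, was the only member whose groups did not overlap, at 6.90, 6.98 and 6.77 RPKM in WT and 7.34, 8.05 and 7.48 RPKM in MUT. All MUT values were higher by a small margin (log2 fold change 0.15 ± 0.08 SE). One gene of 40 is below the 4.69% of all tested genes in which every MUT value exceeded every WT value, and 3% showed the opposite order. Cdc25b was also the member with the lowest level per length.

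The spindle kinases Plk1 and Aurka and the Aurka activator Tpx2 had log2 fold changes of 0.09, 0.11 and 0.08. Plk1, which matures centrosomes and drives mitotic entry and exit, measured 31.3, 39.1 and 34.0 RPKM in WT and 37.3, 38.4 and 35.4 RPKM in MUT. The lowest and the highest value were both from WT mice. Aurka, the kinase of the spindle poles, measured 20.8, 25.6 and 25.7 RPKM in WT and 28.2, 25.9 and 23.8 RPKM in MUT. MUT replicate 3 lay between WT replicates 1 and 2, and the difference of Aurka was 0.01 on the log2 scale without WT replicate 1.

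The 5 genes of the spindle assembly checkpoint, which delays anaphase until all chromosomes are attached, had log2 fold changes between -0.05 (Mad2l1) and 0.10 (Bub1b), 4 of them above 0. The checkpoint kinase Ttk was among the steadiest members, at 20.9 ± 0.778 RPKM in WT and 21.6 ± 0.216 RPKM in MUT (SD, n = 3 each). Bub1 and Bub3 differed by 0.04 and 0.00 on the log2 scale.

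Centromere and kinetochore genes went both ways, with 4 of 7 higher in MUT and 3 lower (median log2 fold change 0.04). Cenpa, the histone variant that marks centromeres, had the lowest fold change of the 40 and measured 22.7, 25.4 and 24.9 RPKM in WT and 23.8, 22.1 and 22.6 RPKM in MUT. The groups overlapped through WT replicate 1 and MUT replicate 1, and the log2 fold change was -0.09 ± 0.07 (SE, edgeR adjusted p = 0.998). Spc24, a subunit of the Ndc80 complex that holds microtubules at the kinetochore, measured 10.1, 10.9 and 13.1 RPKM in WT and 10.5, 12.1 and 10.2 RPKM in MUT. WT replicate 3 was highest, and the log2 fold change turned from -0.06 to 0.06 without it. The 4 subunits of the Ndc80 complex did not share a direction, since Ndc80 (0.06) and Nuf2 (0.08) lay above 0 and Spc25 (-0.05) and Spc24 below it on the log2 scale, each with an interval that crossed 0. Without WT replicate 3, Spc25 stood at 0.01. Cenpe and Cenpf, large proteins of the outer kinetochore, had log2 fold changes of 0.04 and 0.09, and of -0.07 and -0.04 without WT replicate 3, the lowest mouse for both.

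All 4 motor genes and all 3 genes of the chromosomal passenger complex had higher means in MUT, and none passed the test. Without WT replicate 3, this held for 2 of the 4 motors and for all 3 of the complex. Kif20a, a kinesin of the spindle midzone, measured 43.0, 48.1 and 39.0 RPKM in WT and 48.9, 51.0 and 44.7 RPKM in MUT. MUT replicate 3 was below WT replicate 2 (log2 fold change 0.15 ± 0.09 SE). The annotated exons of Kif20a overlap those of Cdc23 on the opposite strand over 33.2% of their length, and fragments there were left out of both counts. The other motors, Kif23, Kif11 and Kif2c, lay between 0.01 and 0.09 on the log2 scale, and Kif11 and Kif2c at -0.00098 and -0.02 without WT replicate 3.

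In the chromosomal passenger complex, which corrects faulty attachments and then moves to the midzone, the kinase Aurkb measured 30.7, 33.1 and 31.5 RPKM in WT and 34.6, 34.9 and 32.4 RPKM in MUT. One MUT mouse was below the highest WT mouse (log2 fold change 0.10). Birc5, the subunit survivin, measured 15.6, 18.2 and 17.4 RPKM in WT and 17.2, 18.7 and 16.9 RPKM in MUT. The MUT values of Birc5 lay among and just above the WT values (log2 fold change 0.04), and Incenp, the scaffold of the complex, stood at 0.09 on the log2 scale.

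Among the genes of the midzone and cytokinesis, Prc1, which bundles midzone microtubules, and Anln, a scaffold of the contractile ring, had log2 fold changes of 0.15 and 0.12, whereas Ect2 and Nusap1 had 0.01 and -0.01 (-0.03 and 0.0072 without WT replicate 3). In the group of anaphase and mitotic exit, 3 of 4 genes had a lower mean in MUT, and 1 of 4 without WT replicate 3, when Cdc20 stood at 0.0034 and Ube2c, the ubiquitin-conjugating enzyme of the anaphase-promoting complex, moved from -0.02 to 0.03 on the log2 scale. Cdc20, the activator of the anaphase-promoting complex and the member with the highest level per length, measured 83.1, 88.1 and 91.3 RPKM in WT and 89.9, 87.6 and 80.0 RPKM in MUT. The lowest Cdc20 value was that of MUT replicate 3 and the highest that of WT replicate 3. Pttg1, securin, measured 19.0, 20.1 and 25.0 RPKM in WT and 20.4, 20.3 and 20.3 RPKM in MUT. The MUT mice were nearly equal and WT replicate 3 alone was high, and the log2 fold change of Pttg1 was -0.07 with this mouse and 0.06 without it. Espl1, the separase that securin restrains, showed the reverse picture, with 27.9 RPKM in WT replicate 3 and between 35.3 and 39.4 RPKM in the other 5 mice. Its log2 fold change was 0.12 with WT replicate 3 and -0.02 without it.

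**Figure D2:**
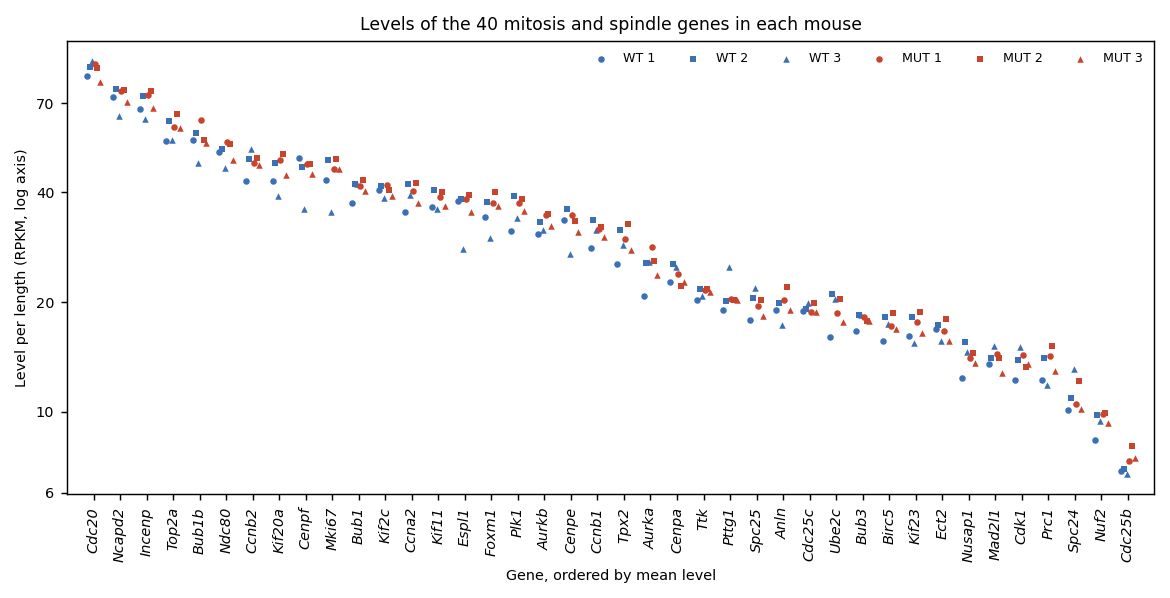
Level of each of the 40 genes in every mouse in RPKM (log y axis), ordered by the mean over 6 mice (x axis), with WT in blue, MUT in red and the replicate number as the marker shape. Levels run from 86.6 RPKM for Cdc20 to 7.25 RPKM for Cdc25b, and the 6 mice of a gene lie close together beside the differences between genes.

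All 40 genes stood above the median level of tested genes, which was 3.90 RPKM. The mean levels ranged from 86.6 RPKM (Cdc20) to 7.25 RPKM (Cdc25b), the lowest being at the 62.4th percentile of tested genes. The order depends on the length used. With the coding transcript in place of all annotated exons, Top2a came first, Cdc20 moved to rank 4 and Cenpa from rank 23 to rank 3, while Cdc25b stayed last.

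The spread between mice of 1 group exceeded the difference between the groups. The summed level of the 40 genes was 1232, 1352 and 1227 RPKM in WT replicates 1 to 3 and 1341, 1363 and 1256 RPKM in MUT replicates 1 to 3. WT replicate 2 lay above MUT replicates 1 and 3, so that the sums overlapped. The ratio of the group means was 1.04 (0.06 on the log2 scale), below the SD of 0.07 that mice of one group showed on the same scale. Between mice of the same number, which deviated together over the genes above 10 CPM, the MUT sum was the higher in 3 of 3 pairs. Which mice were littermates is not given, and WT replicate 2 correlated more with MUT replicate 1 (0.32) than with MUT replicate 2 (0.17). MUT replicate 2 held the highest value of the 6 mice for 19 of the 40 genes, WT replicates 2 and 3 for 8 each, MUT replicate 1 for 4, WT replicate 1 for 1 and MUT replicate 3 for none. WT replicate 1 held the lowest value for 19 genes and WT replicate 3 for 16. MUT replicate 3 was above a gene's mean for only 5 of 40 genes, while WT replicate 2 was above it for 36. The number of genes higher in MUT was 37 of 40 for the mice numbered 1, 26 for those numbered 2 and 20 for those numbered 3. These counts by mouse and by pair were not made over all genes, and genes that share a library are not independent. They therefore cannot show whether a shift is particular to the mitosis genes. The SD of a gene over the mice of a group, in log2 CPM, had a median of 0.13 in WT and 0.07 in MUT, and was larger in WT for 32 of 40 genes (80%), where it was larger in WT for 61.2% of the genes above 10 CPM. Without WT replicate 3 the WT median was 0.11, with 27 of the 40 genes (67.5%) and 36.9% of the genes above 10 CPM larger in WT. This WT SD rests on 2 mice and the MUT SD on 3, so that these shares are not comparable with those from 3 mice in each group.

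**Figure D3:**
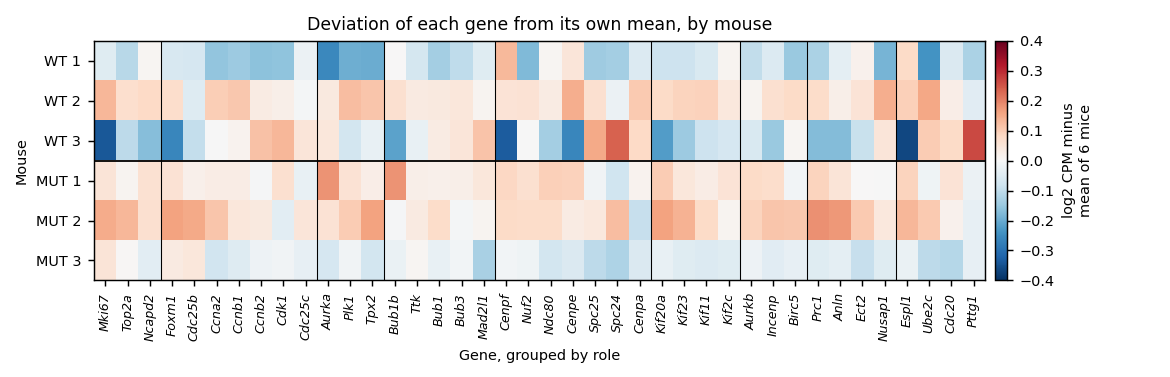
Deviation of each of the 40 genes (x axis, grouped by role) in each mouse (rows) from its own mean over 6 mice, in log2 CPM, from lower (blue) to higher (red). WT 1 is lower for most genes, MUT 2 and WT 2 are higher for most, and WT 3 is mixed, with its strongest values in both directions.

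The mixed pattern of WT replicate 3 followed transcript length. The 10 members with the shortest coding transcripts (947 to 1945 bases) were all above their own means in this mouse (median 0.09 on the log2 scale). Of the 10 with the longest (4605 to 11130 bases), 9 were below (median -0.22), Mad2l1 being the exception. Mki67, Cenpf and Espl1 lay 0.34, 0.33 and 0.36 below their means on the log2 scale in this mouse, while Pttg1 and Spc24 lay 0.26 and 0.24 above. Over all genes above 10 CPM in WT replicate 3, the median deviation was 0.16 for 641 genes with under 1500 bases of exon and -0.13 for 3575 genes with over 6000 bases. Across the 40 genes, which share a library and are not independent, the deviation in WT replicate 3 had a correlation of -0.72 with log2 transcript length. In the other 5 mice it was 0.24 to 0.57. Deviations were taken from the mean of all 6 mice, so that a trend in 1 mouse shifts the other 5 the opposite way on average. The values of the other 5 are therefore not an independent contrast.

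Length also ordered the small differences between MUT and WT, and this rested on WT replicate 3. Of the 10 longest members 9 had a higher mean in MUT (median log2 fold change 0.09), and of the 10 shortest 3 did (median -0.02). Without WT replicate 3 the order turned round, with 4 of the 10 longest and 9 of the 10 shortest higher in MUT (medians -0.0025 and 0.041). The count over all 40 genes moved little, with 31 higher in MUT without this mouse and a median of 0.04. When each library's trend on exon length was taken out, 26 genes were higher and 14 lower (median 0.02), with 0 called and 0 at an unadjusted p under 0.05 in edgeR, and 9 of the 10 longest and 3 of the 10 shortest members were higher (medians 0.05 and -0.02). The trend removed was on the length of all annotated exons, whereas these members were ranked by coding transcript. The removal therefore cannot show whether an order by coding transcript length remains once its own trend is taken out. The origin of the length pattern was not tested.

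**Figure D4:**
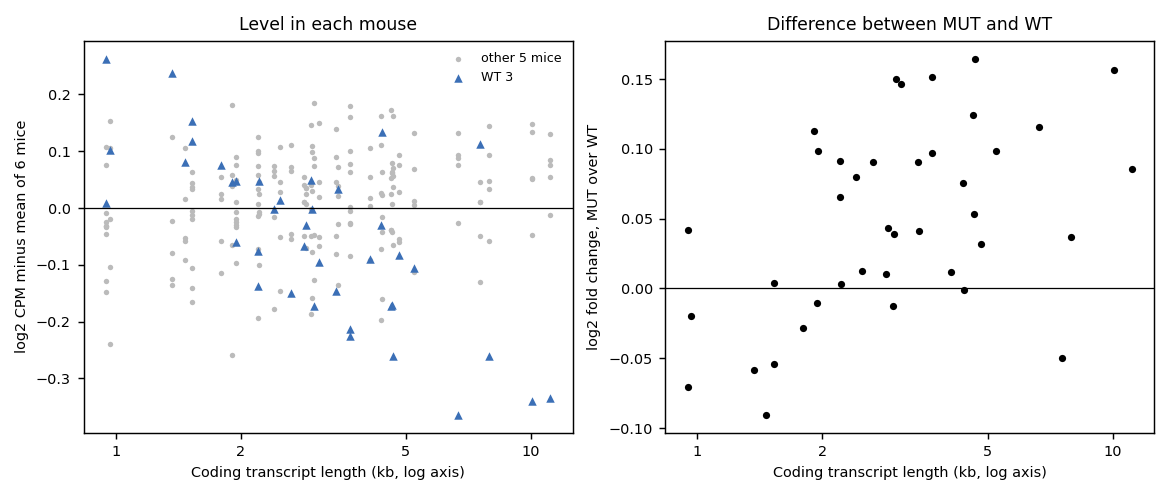
Left, log2 CPM of each of the 40 genes minus its mean over 6 mice against the length of its coding transcript (kb, log x axis), with WT 3 as blue triangles and the other 5 mice in grey. Right, log2 fold change of the same genes, MUT over WT, against the same length. In WT 3 short genes lie above 0 and most long genes below it, and the fold changes are mostly below 0 for the shortest genes and above 0 for the longest.

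A wider set of mitosis genes held no call either. Of 96 further genes of the centromere, outer kinetochore, anaphase-promoting complex, condensin, spindle, cytokinesis and mitotic entry, edgeR called 0, with 1 at an unadjusted p under 0.05 (3 with the replicate block, and 0 in DESeq2). The shares of all genes at this p were 2.78% in edgeR, 6.6% with the block and 1.18% in DESeq2. In MUT 72 of the 96 had a higher mean (75%, against 58.1% of the genes above 10 CPM) and 24 a lower one, with a median log2 fold change of 0.05. The gene with the unadjusted p under 0.05 was Cdca5, sororin, which protects cohesion between sister chromatids, at 39.5, 43.9 and 41.4 RPKM in WT and 48.7, 48.4 and 43.6 RPKM in MUT. MUT replicate 3 lay below WT replicate 2 (log2 fold change 0.17 ± 0.07 SE, edgeR adjusted p = 0.998). Cdca5 did not have the largest difference. The log2 fold changes of the 96 ran from -0.15 to 0.30, the highest being among the further genes of mitotic entry. The 95% confidence interval lay within 1.5-fold of equality for 95 of the 96. In 4 genes every MUT value exceeded every WT value, namely Dsn1, Cdc23, Mybl2 and Lin52, and in Lin54 every MUT value was lower, 5 of 96 genes where the share over all tested genes was 7.69%. These 5 were named after their values were seen. The spindle and motor genes had the most even direction, with 19 of 20 above 0 (median 0.07), and the constitutive centromere genes the least, with 9 of 19 above 0 (median -0.0012). Here too WT replicate 3 stood apart, lowest for 10 of the 20 spindle genes and highest for 10 of the 19 centromere genes. Without it, 14 of the 20 and 13 of the 19 were above 0 (medians 0.03 and 0.04).

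Genes of DNA replication, a readout of S phase, also did not pass the test. Of 21 genes, 0 were called by edgeR or DESeq2 and 0 had an unadjusted p under 0.05. In MUT 19 were higher (90.5%, against 58.1% of the genes above 10 CPM) and 2 lower, with a median log2 fold change of 0.07. The 6 Mcm helicase genes lay between 0.08 and 0.15 on the log2 scale. Mcm2 measured 58.3, 62.3 and 55.4 RPKM in WT and 66.0, 67.9 and 61.6 RPKM in MUT, MUT replicate 3 being below WT replicate 2. Pcna, the sliding clamp, stood at -0.02, and Tyms, thymidylate synthase, at -0.06 with every MUT value below every WT value (also named after its values were seen). Tyms was the only 1 of the 21 with separated groups. Over all tested genes, every MUT value was lower in 3%, and 7.69% were separated in either direction.

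Summed levels of genes that mark some other cell types spread more widely over the mice than those of the mitosis genes. The ratio of the highest to the lowest mouse in summed level was 1.11 for the 40 members and 1.08 for the 96 further genes. The cell type lists hold fewer genes, so that their sums average over less. Among the members grouped by role the ratio reached 1.25, for the 3 genes of spindle kinases and their activator. It was also 1.25 for the 6 genes of differentiating spermatogonia, and 1.90 for macrophage, 2.45 for spermatid and 6.52 for Leydig cell genes. Spermatid genes, such as the protamines Prm1 and Prm2, ran from 923 to 2262 RPKM in sum, with WT replicate 3 highest and MUT replicates 1 and 2 lowest at 923 and 952. Their 6 genes had a lower mean in MUT in each case (median log2 fold change -0.55), with 0 called and 1 at an unadjusted p under 0.05 in edgeR. With the replicate block, Tnp1 was called (adjusted p = 0.0794, edgeR) and 4 had an unadjusted p under 0.05, where the share of all tested genes was 6.6%. Without WT replicate 3 the means of 4 of the 6 were lower. Spermatocyte genes, which are in meiotic and not mitotic division, ran from 196 to 292 RPKM in sum, and WT replicate 3 was highest for 7 of 9. In MUT 3 of the 9 had a higher mean and 6 a lower one (median log2 fold change -0.04). Without WT replicate 3 the direction turned, with 7 higher and 2 lower (median 0.18). None was called in either case, with 0 at an unadjusted p under 0.05 in edgeR and 3 without that mouse, where the share of all genes was 3.63%. Macrophage genes summed to 353 RPKM in WT replicate 3 and to between 186 and 248 RPKM elsewhere, and all 5 were highest in that mouse. All 5 had a lower mean in MUT (median log2 fold change -0.31), and 4 did without WT replicate 3. In edgeR 0 were called and 0 had an unadjusted p under 0.05. With the block 4 had one, against 6.6% of all tested genes. Lymphoid genes had the widest ratio of highest to lowest mouse, 8.37, through Jchain, an immunoglobulin joining chain, at 4.86, 16.9 and 27.7 RPKM in WT and 1.18, 0.586 and 5.86 RPKM in MUT, which edgeR called with the block (adjusted p = 0.0257) and not without it. The lymphoid list did not share this direction, with 3 of 5 genes higher in MUT and 2 lower (median log2 fold change 0.02). Without the block 0 were called, and 2 had an unadjusted p under 0.05 in edgeR, 1 in each direction. Leydig cell genes summed to 25.9 RPKM in MUT replicate 3 and to between 3.97 and 7.72 RPKM elsewhere. Their part in the level of the mitosis genes was not tested.

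Markers of differentiating spermatogonia, the cells that have left the undifferentiated state, had a higher mean in MUT for 6 of 6 genes (median log2 fold change 0.18), and for 5 without WT replicate 3. None was called, and 2 had an unadjusted p under 0.05 in edgeR (33.3%, against 2.78% of all tested genes). Without WT replicate 3 this number was 1, against 3.63% of all tested genes. With the replicate block it was 3, against 6.6%. In 2 of the 6 every MUT value exceeded every WT value, against 4.69% of all tested genes. Stra8 was 1 of these 2, and it is given with Kit as a defining gene of the list. Stra8, a target of retinoic acid, measured 88.2, 95.9 and 96.9 RPKM in WT and 102, 134 and 104 RPKM in MUT. Kit, the receptor that marks these cells, measured 15.2, 18.6 and 13.9 RPKM in WT and 17.4, 25.4 and 18.4 RPKM in MUT, with overlap. MUT replicate 2 was highest for both, and it was also highest for 19 of the 40 mitosis genes. The part of these cells in the level of the mitosis genes was not tested.

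**Figure D5:**
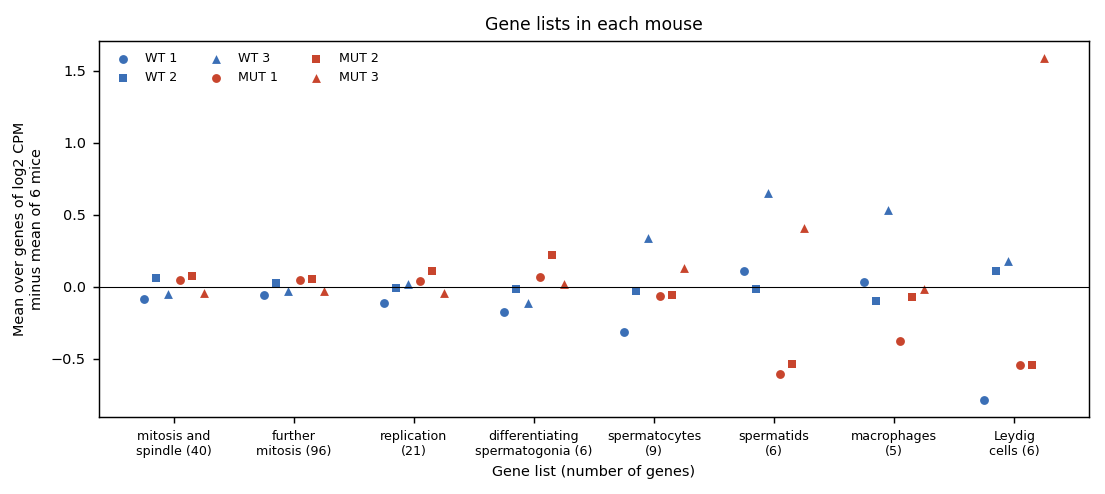
Deviation from the mean of 6 mice in log2 CPM (y axis), averaged over the genes of each list (x axis, with the number of genes), 1 point per mouse, with WT in blue, MUT in red and the replicate number as the marker shape. The mitosis lists lie close to 0 in every mouse, while spermatid, macrophage and Leydig cell genes spread much wider, with WT 3 or MUT 3 highest.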

How the data were processed

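RNA was sequenced from tdTomato+ MCAM-bright spermatogonia of 3 WT and 3 MUT mice, 1 library per mouse, as paired-end stranded mRNA libraries. The values deposited by the authors are unnormalized counts, the number of fragments on each gene name, made with featureCounts 1.6.2 on the GENCODE vM17 annotation of GRCm38.p6 with tdTomato added. The counting ignored strand and left out fragments that mapped to several places or overlapped several genes, which lowers the counts of genes with shared exons (Kif20a, Ube2c, Ccna2 and Prc1, each over 10% or more of their exons). STAR and FastQC are named in the submitters' processing notes, with versions not given in the sources used here. The 6 count tables were joined by gene name, and groups and replicate numbers were taken from the sample titles.

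Counts were TMM-normalized and filtered with filterByExpr in edgeR 4.0.16 (R 4.3.3), and MUT was compared with WT by the quasi-likelihood test of that package in a model that held genotype alone. P-values were adjusted over all tested genes by the Benjamini-Hochberg method, with a threshold of 0.1, and 95% confidence intervals used the fitted degrees of freedom. Each mouse is a separate sample. Log2 deviations used CPM with 0.5 added. Depth was 22729292 to 23550433 counts per library. Replicates differed by more than sampling noise (chi-square per degree of freedom 4.26 to 24.5). The scripts were tested on simulated counts with known changes.

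Alternatives were DESeq2 1.42.0 (also with its filter on Cook's distances switched off), voom of limma 3.58.1, edgeR scaled by DESeq2 size factors, no filter on low counts, at least 10 counts in every sample, a threshold of 0.05, the replicate number as a block, and each mouse left out in turn. The removal of each library's loess trend on exon length, the coding transcript length and the omission of members with shared exons were added after seeing the data. Same-numbered mice deviated together from their group means (correlations of 0.31, 0.17 and 0.39 over 10583 genes above 10 CPM), and the numbers come from the sample titles. The study used littermate controls without saying which mice were paired. WT replicate 2 and MUT replicate 1 also correlated (0.32).

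The members and lists were chosen with earlier results of these data known, and no set test was run over them. Genes given with all values were Mki67, Top2a, Ccnb1, Cdk1, Plk1, Aurka, Aurkb, Birc5, Foxm1, every member with an unadjusted p under 0.05 or with separated groups, the 3 highest and 3 lowest fold changes, the highest and lowest level per length and, from the further lists, up to 3 genes with an unadjusted p under 0.05. Espl1, Ttk, Mcm2, Stra8 and Kit were added to these. Promoter sequences are from RefSeq (GRCm38.p6). Files use older symbols for 4 genes of the further lists, matched through RefSeq synonyms.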

Additional observations from a re-analysis of the deposited data

How the results depend on the processing

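No mitosis or spindle gene was called under any of the alternatives run, and none of the further mitosis or replication genes was. Of the members, 0 had an unadjusted p under 0.05 with all 6 mice, and between 0 and 2 with 1 mouse left out, the 2 being Foxm1 and Prc1 without WT replicate 2 (adjusted p = 0.998, edgeR). The number of all genes called was 2 with edgeR, 9 with DESeq2, 17 when its filter on Cook's distances was off, 4 with limma voom, 5 without a filter, 0 with at least 10 counts in every sample (479 at an unadjusted p under 0.05), 1 with the length trend removed, 1 at an adjusted p of 0.05 and 0 to 6 with 1 mouse left out, the 0 being without MUT replicate 2 (292 at an unadjusted p under 0.05). Blocking on the replicate number gave 13 calls (edgeR) and 55 calls (DESeq2), and the block changed no call of a member, of a further mitosis gene or of a replication gene.

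The median log2 fold change of the members was 0.04, with a range of 0.0093 (without WT replicate 1) to 0.087 (without WT replicate 2) when a mouse was left out (0.013 without MUT replicate 2 and 0.083 without MUT replicate 3) and 0.02 to 0.05 otherwise. The members higher in MUT numbered 22 to 36 of 40 with 1 mouse left out and 26 with at least 10 counts in every sample. The summed level differed by 0.03 to 0.07 on the log2 scale under other scalings, by 0.06 as the mean of same-numbered pairs (the replicate block) and by 0.03 to 0.10 with 1 mouse left out. Of 225 log2 fold changes of the 15 named members under the alternatives, 206 kept their direction and 19 changed it, in Cdk1, Ccnb1, Birc5, Pttg1, Spc24 and Cdc20. Over all 40 members, the direction turned for 15 without WT replicate 3. Cdk1 stood at 0.0013 in DESeq2, with its filter on Cook's distances on or off, 0.0032 in limma voom, 0.0033 without a filter, 0.0031 with the replicate block in edgeR and 0.0047 with it in DESeq2. Ccnb1 stood at -0.0058 with the length trend removed. With 1 mouse left out, the ranges were -0.085 to 0.069 for Cdk1, -0.062 to 0.060 for Ccnb1, -0.028 to 0.080 for Birc5, -0.16 to 0.058 for Pttg1, -0.15 to 0.056 for Spc24 and -0.072 to 0.022 for Cdc20. Apart from the mouse left out, the cause of these changes was not tested.

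With 3 mice a group, differences well under 1.5-fold were not resolved for single genes, depth being large for all 40. Levels per length rest on the annotated exons, which are longer than the main transcript of some genes, and the share of cells in mitosis was not measured.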
